A study of Danio rerio with 9 samples.

Results

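The genes described here carry out fatty acid oxidation. They were named as a list of 34 enzymes and carriers, and 33 of them were found by gene name among the 19852 genes of the deposited tables. *hadhb* was found under the same name in capitals, and *acsl4b* had no match by name and was not analysed here. Of the genes found, 21 act in the mitochondrion, 6 act in the peroxisome, 2 (*acad11* and *eci2*) have products in both compartments and 4 are long-chain acyl-CoA synthetases. All 33 had values above the minimum mean of 10 normalized counts and were tested in every comparison, with 34 to 2919 reads per library.

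Fatty acids are oxidized after an acyl-CoA synthetase has joined them to coenzyme A. Long chains then pass into the mitochondrion on carnitine, where repeated rounds of dehydrogenation, hydration, dehydrogenation and thiolysis release acetyl-CoA and hand electrons to the respiratory chain. Peroxisomes shorten very long and branched chains by a parallel set of enzymes whose first step gives its electrons to oxygen. In rodents, genes of both pathways are well-known targets of the nuclear receptor PPARα, and perfluorinated carboxylic acids such as perfluorononanoic acid (PFNA) activate that receptor. In a zebrafish larva the liver, the intestine, the heart and the skeletal muscle are known for burning fat.

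Whole zebrafish larvae of an AB × Tübingen background were exposed to 0.1 µg/L PFNA, to 10 µg/L PFNA or to the vehicle alone for 7 days from the embryo on. The vehicle, 0.1% dimethyl sulfoxide (DMSO), was shared by all groups, since the PFNA stocks were made in it. Each of the 3 groups had 3 libraries of messenger RNA, and each library came from a pool of 14 to 15 larvae raised in one beaker. The pools held whole larvae, so fewer cells of a type and less RNA per cell cannot be told apart.

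The libraries held 14491289 to 23963715 assigned reads in the DMSO group, 14759340 to 18831986 in the 0.1 µg/L group and 17191934 to 19168248 in the 10 µg/L group. DMSO replicate 3 stood apart from its group. On the first principal component of all genes (51.4% of the variance) it scored 41.9, on the side of the 10 µg/L pools (39.5 to 51.4), while DMSO replicates 1 and 2 scored -49.2 and -31.1. Replicate 2 of the 0.1 µg/L group scored 19.4, and the other pools of that group -68.7 and -48.0. DMSO replicates 1 and 2 also carried a different first sequencing index from the other 7 libraries. The counts over the list, and several of the larger fold changes of single genes, are therefore also given without DMSO replicate 3.

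The fatty acid oxidation genes also varied from pool to pool within each group, in a partly different order. On their own first principal component (73.5% of the variance) the DMSO pools scored -0.39, -2.24 and 2.03. The 0.1 µg/L pools scored -1.86, 0.45 and -1.36 and the 10 µg/L pools 2.65, 0.26 and 0.46. The highest of the 9 values belonged to DMSO replicate 3 or to replicate 1 of 10 µg/L PFNA for 23 of the 33 genes. The lowest value belonged to DMSO replicate 2 or to replicate 1 or 3 of 0.1 µg/L PFNA for 25 of them. The pools named in both counts were picked from these same values. Within the DMSO group alone, replicate 3 was the highest pool for 26 genes and replicate 2 was the lowest for 24. The gap between the highest and the lowest DMSO pool was wider than the difference between the 10 µg/L and the DMSO mean for 29 of the 33 genes, and wider than the difference at 0.1 µg/L for 31. The shares of all genes with these patterns were not counted, so the patterns are not read as particular to the list. Per-library values are given on one scale over all 9 libraries, as normalized counts. Log2 fold changes were fitted on log2(normalized count + 1) in each deposited table. Between that scaling and the common one, the log2 fold changes of these genes differed by at most 0.011.

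**Figure D1:**
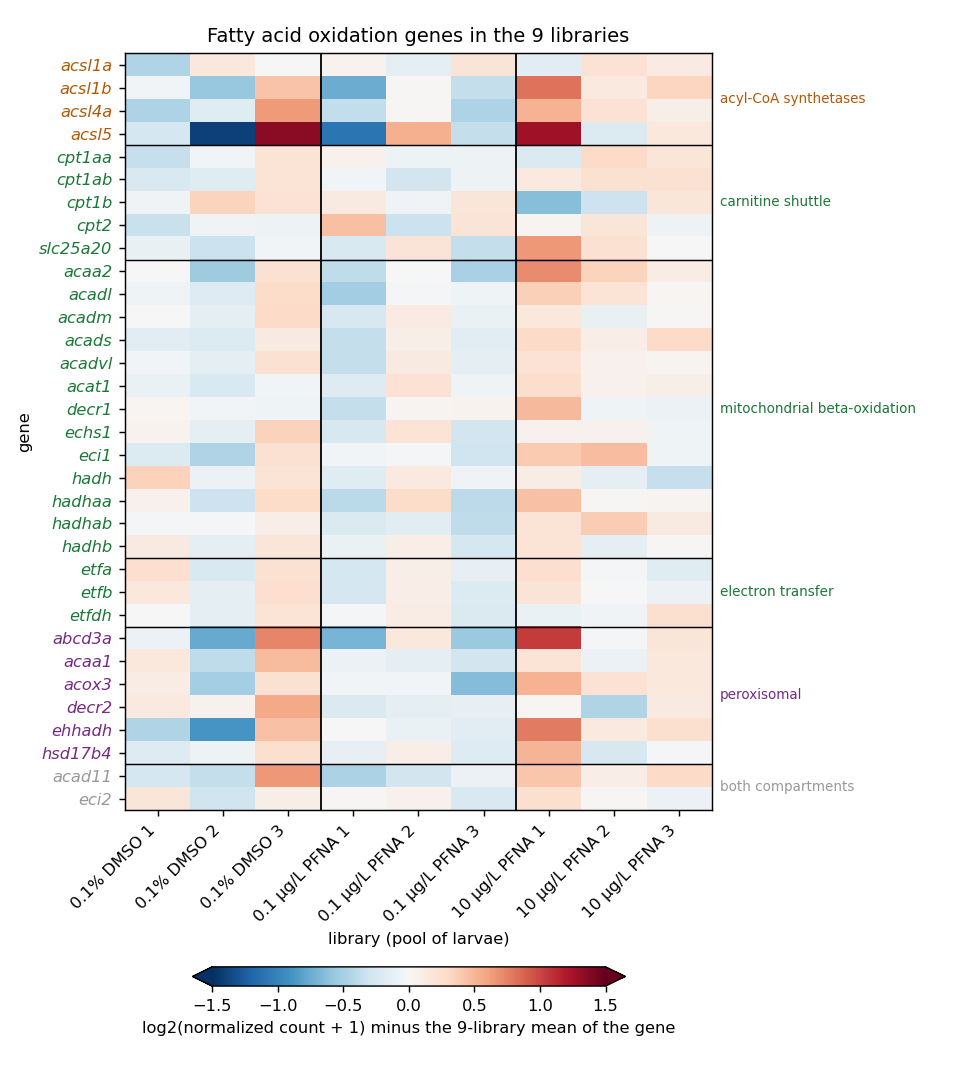
Heat map of log2(normalized count + 1) minus the gene's mean over the 9 libraries, with 1 row per gene grouped by role and 1 column per pool, and colours limited to -1.5 and 1.5. DMSO replicate 3 and replicate 1 of 10 µg/L PFNA are red for most genes, DMSO replicate 2 and replicate 1 of 0.1 µg/L PFNA are blue, and *acsl5* has the widest range, at 2.76 on the log2 scale.

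Against the DMSO pools, none of the 33 genes passed an adjusted p of 0.05 at either concentration in limma. At 0.1 µg/L, 0 of 33 had an unadjusted p under 0.05, where 1.57% of the 19065 genes tested did. An adjusted p under 0.05 was reached by 0 genes in all. On the recovered reads, edgeR and DESeq2 also gave 0 of these genes at an unadjusted p under 0.05, against 311 (1.63%) and 268 (1.41%) of all genes. Values were higher than in DMSO for 7 of the 33 genes, against 50.6% of all genes, and the median log2 fold change was -0.14, against 0.003 for all genes tested. That lean depended on DMSO replicate 3. Without that pool, 17 of 33 genes were higher and the median was 0.002. With any other single pool left out, 5 to 11 of 33 were higher. The median then ran from -0.26, without replicate 2 of 0.1 µg/L PFNA, to -0.07, without replicate 1 of that group. With the first index as a covariate, which leaves DMSO replicate 3 as the one control that shares it, 3 of 33 were higher and 6, all lower, had an unadjusted p under 0.05, where 11.7% of all genes did. That fit sets the exposed pools against a lone control pool and assumes that it varies like the other groups.

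At 10 µg/L, 1 of 33 genes, *slc25a20*, had an unadjusted p under 0.05, where 13.1% of the 19610 genes tested did and 7.91% did so upwards. Adjusted over all genes, limma and edgeR passed 0 genes of any kind, with 2572 and 2505 (12.8%) at an unadjusted p under 0.05. DESeq2 passed 229 genes (1.21% of those with an adjusted p), 0 of them in the list, with 12.3% of all genes and 1 of the 33 at an unadjusted p under 0.05. Values were higher than in DMSO for 23 of the 33, against 50.8% of all genes, and their median log2 fold change stood at 0.15, against 0.006 over all genes. Without DMSO replicate 3, 29 of 33 were higher, and 10 had an unadjusted p under 0.05, where 26.9% of all genes did. In that fit 1 gene of the list (*ehhadh*) passed the adjusted threshold, as did 2186 of the 19610 genes tested. The median was 0.25 without DMSO replicate 3, 0.06 without DMSO replicate 2 and 0.10 without replicate 1 of 10 µg/L PFNA. With the first index as a covariate, and so against DMSO replicate 3 alone, 10 of 33 were higher and the median was -0.13.

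**Figure D2:**
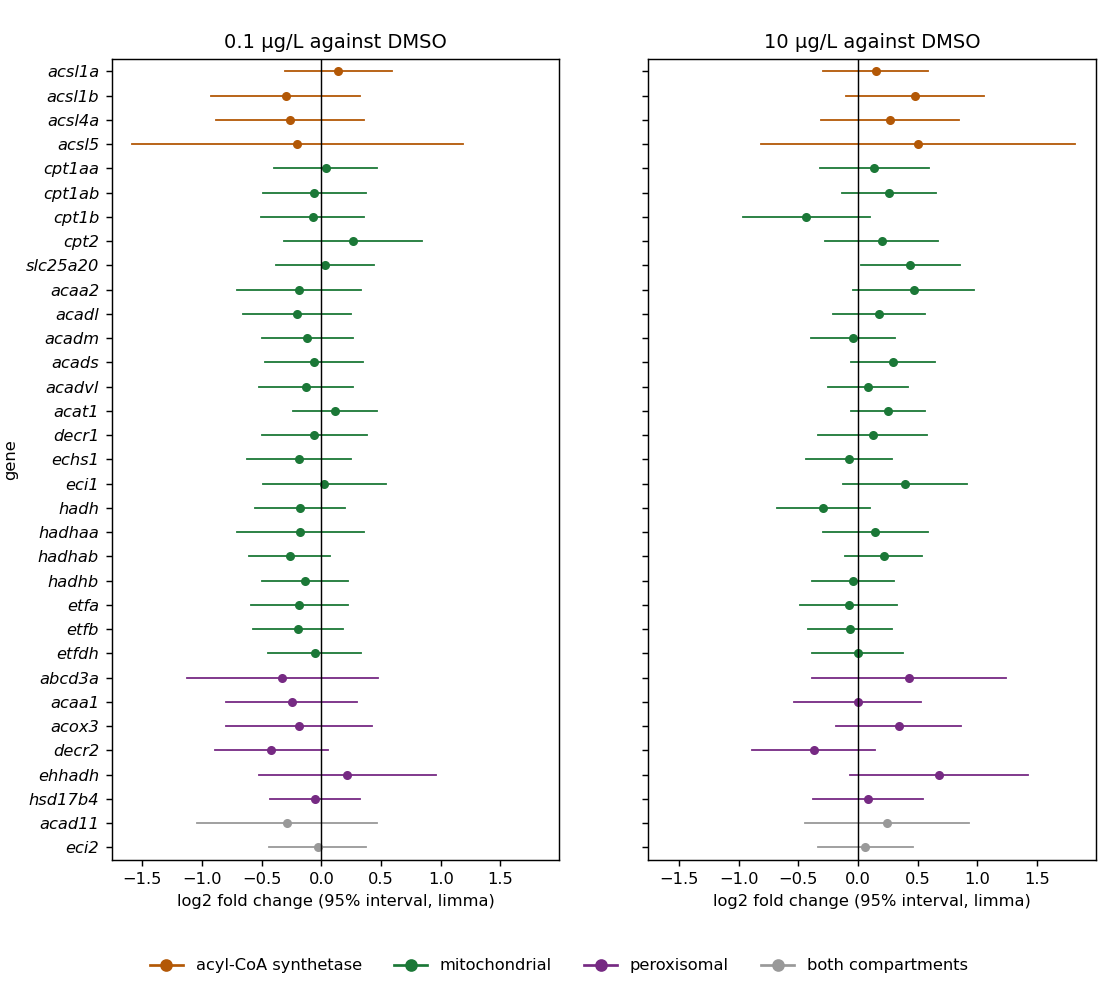
Change relative to DMSO on the log2 scale for the 33 genes at 0.1 µg/L (left) and 10 µg/L (right), with points for limma estimates from 3 against 3 pools, lines for 95% intervals and colours for the compartment. At 10 µg/L the interval of *slc25a20* (0.02 to 0.85) lies above 0 and every other interval crosses it, and at 0.1 µg/L every interval crosses 0.

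The acyl-CoA synthetases, which trap fatty acids in the cell as acyl-CoA, had the widest median range of the classes, at 1.33 on the log2 scale over the 9 pools. All 4 were higher at 10 µg/L than in DMSO, at a median of 0.37 on the log2 scale, and 3 of 4 were lower at 0.1 µg/L, with none passing a test at either. *acsl5* (ENSDARG00000075931), which in mammals is abundant in the intestine, counted 329, 149 and 1011 in the DMSO pools, 184, 571 and 308 in the 0.1 µg/L pools and 958, 343 and 439 in the 10 µg/L pools. DMSO replicate 3 alone was 6.79-fold above DMSO replicate 2, and the log2 fold change of *acsl5* at 10 µg/L, 0.50, had a 95% interval from -0.82 to 1.82. *acsl1b* (ENSDARG00000003854) counted 402, 278 and 558 in the DMSO pools, 246, 419 and 321 in the 0.1 µg/L pools and 727, 458 and 516 in the 10 µg/L pools. Its 10 µg/L mean was 567 ± 141 and its DMSO mean 412 ± 140.4 (SD, n = 3 each), with overlapping pools. The log2 fold change was 0.48 (SE 0.26, limma adjusted p = 0.468). As single pools were left out it ran from 0.22 to 0.72, the latter without DMSO replicate 3. *acsl1a*, its paralog, behaved differently from pool to pool and counted 242, 372 and 331 in the DMSO pools, 345, 302 and 381 in the 0.1 µg/L pools and 299, 386 and 361 in the 10 µg/L pools. DMSO replicate 1 was its lowest pool, and its log2 fold changes were 0.14 at 0.1 µg/L and 0.15 at 10 µg/L. *acsl4a*, which prefers arachidonic acid in mammals, counted 309, 376 and 662 in the DMSO pools, 331, 433 and 308 in the 0.1 µg/L pools and 610.5, 495 and 453 in the 10 µg/L pools. DMSO replicate 3 was again the highest pool, and the log2 fold changes were -0.26 and 0.27.

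In the carnitine shuttle, 4 of 5 genes were higher at 10 µg/L than in DMSO and 3 of 5 at 0.1 µg/L, with median log2 fold changes of 0.20 and 0.03. Carnitine palmitoyltransferase 1 makes acylcarnitine at the outer membrane and is the rate-limiting step of long-chain oxidation. *cpt1aa* and *cpt1ab* correspond to the mammalian liver form and *cpt1b* to the muscle form. *cpt1aa* counted 203, 250.1 and 299 in the DMSO pools, 271, 245 and 245 in the 0.1 µg/L pools and 223, 317 and 294 in the 10 µg/L pools. *cpt1ab* counted 197, 203 and 267 in the DMSO pools, 224, 190.5 and 219 in the 0.1 µg/L pools and 255, 272 and 271 in the 10 µg/L pools. Both liver-form paralogs overlapped between each PFNA group and DMSO, while the 10 µg/L pools of *cpt1ab* lay above its 0.1 µg/L pools. Their log2 fold changes at 10 µg/L were 0.14 (95% interval -0.32 to 0.59) and 0.26 (-0.14 to 0.65), and at 0.1 µg/L 0.04 and -0.06. *cpt1b* (ENSDARG00000058285) was the one gene of the shuttle that was lower at 10 µg/L and counted 162, 211 and 195 in the DMSO pools, 185, 162 and 190.4 in the 0.1 µg/L pools and 107, 135 and 191 in the 10 µg/L pools. Replicates 1 and 2 of 10 µg/L PFNA were its lowest 2 pools, while replicate 3 lay within the DMSO range. Its 10 µg/L mean was 144 ± 42.6 against 189.6 ± 25.1 in DMSO (SD, n = 3 each), a log2 fold change of -0.43 (SE 0.24, limma adjusted p = 0.472). As single pools were left out it ran from -0.66 to -0.24.

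*slc25a20* (ENSDARG00000040401), the carnitine-acylcarnitine carrier of the inner membrane, had the smallest p of all 33 genes at 10 µg/L. It counted 576, 496 and 605 in the DMSO pools, 529.8, 713 and 483 in the 0.1 µg/L pools and 977, 727 and 620.3 in the 10 µg/L pools. Every 10 µg/L pool lay above every DMSO pool, by 620.3 against 605 at the nearest. The means were 775 ± 183 and 559 ± 56.5 (SD, n = 3 each), with a log2 fold change of 0.44 (SE 0.19), an unadjusted p of 0.0408 and a limma adjusted p of 0.363. As single pools were left out the log2 fold change ran from 0.26, without replicate 1 of 10 µg/L PFNA, to 0.58. *cpt2*, the transferase on the inner face, counted 80.3, 97.7 and 96.4 in the DMSO pools, 139, 80.8 and 116 in the 0.1 µg/L pools and 105, 116 and 96.8 in the 10 µg/L pools. Replicate 1 of 0.1 µg/L PFNA, a low pool for most of the list, was its highest, and its log2 fold changes were 0.26 at 0.1 µg/L and 0.20 at 10 µg/L.

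None of the 13 enzymes of the mitochondrial spiral had an unadjusted limma p under 0.05 against DMSO. Of all genes, 1.57% did at 0.1 µg/L and 13.1% at 10 µg/L, so 0 of 13 does not set these enzymes apart. At 10 µg/L 9 of 13 were higher than in DMSO, at a median of 0.14 on the log2 scale, and at 0.1 µg/L 11 of 13 were lower, with a median of -0.14. The 4 acyl-CoA dehydrogenases, which take the first step on very long, long, medium and short chains, differed from DMSO by log2 fold changes of 0.08 (*acadvl*), 0.17 (*acadl*), -0.04 (*acadm*) and 0.29 (*acads*) at 10 µg/L. At 0.1 µg/L the same genes were at -0.13, -0.20, -0.12 and -0.06. *acads* counted 374, 362 and 461 in the DMSO pools, 325, 445 and 374 in the 0.1 µg/L pools and 513, 447 and 512 in the 10 µg/L pools. The 10 µg/L and DMSO pools overlapped, with DMSO replicate 3 above the lowest 10 µg/L pool, and the limma adjusted p at 10 µg/L was 0.468.

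The trifunctional protein joins the later steps on long chains in an α subunit, with the paralogs *hadhaa* and *hadhab*, and a β subunit, *hadhb*. *hadhab* (ENSDARG00000060594) counted 449, 452 and 493 in the DMSO pools, 396, 409 and 352 in the 0.1 µg/L pools and 529.7, 599 and 503 in the 10 µg/L pools. Of all genes, 6.63% did not overlap with DMSO at 0.1 µg/L, 18% at 10 µg/L and 28.7% between the PFNA groups. The share with all 3 groups apart was not counted. For *hadhab* the 3 groups did not overlap, with the 0.1 µg/L pools below every DMSO pool and the 10 µg/L pools above them. The steps were small against DMSO, with log2 fold changes of -0.27 (SE 0.15) and 0.21 (SE 0.15) and limma adjusted p of 1.00 and 0.562. *hadhaa* ranged more widely within groups, from 279 to 420.1 in DMSO, and gave -0.18 and 0.14 on the log2 scale. *hadhb* gave -0.14 and -0.04.

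Of the remaining spiral enzymes, *acaa2* (ENSDARG00000038881), a mitochondrial thiolase, was the second by p at 10 µg/L. It counted 355, 244 and 414 in the DMSO pools, 271, 353 and 252 in the 0.1 µg/L pools and 575, 443 and 379.6 in the 10 µg/L pools. The 10 µg/L mean of 466 ± 99.8 stood against 337 ± 86.4 in DMSO (SD, n = 3 each), but DMSO replicate 3 exceeded replicate 3 of 10 µg/L PFNA, and the log2 fold change of 0.47 (SE 0.23) had a limma adjusted p of 0.416. As single pools were left out it ran from 0.25 to 0.63, the latter without DMSO replicate 3. *acat1*, the acetoacetyl-CoA thiolase that also serves ketone bodies and isoleucine, counted 1416, 1294 and 1477 in the DMSO pools, 1329, 1768 and 1455 in the 0.1 µg/L pools and 1829, 1588 and 1615 in the 10 µg/L pools. The 10 µg/L pools lay above every DMSO pool, at a log2 fold change of 0.25 (SE 0.14, limma adjusted p = 0.472). *eci1*, the isomerase for unsaturated chains, counted 145, 122 and 197 in the DMSO pools, 163, 165 and 136 in the 0.1 µg/L pools and 221, 231 and 159.9 in the 10 µg/L pools. Replicates 1 and 2 of 10 µg/L PFNA were its highest 2 pools, with a log2 fold change of 0.40 and a limma adjusted p of 0.502. *hadh*, the short-chain 3-hydroxyacyl-CoA dehydrogenase, leaned the other way and counted 1225, 905 and 1110.3 in the DMSO pools, 849, 1067 and 930.2 in the 0.1 µg/L pools and 1043, 867 and 757 in the 10 µg/L pools. Its log2 fold changes were -0.18 at 0.1 µg/L and -0.29 at 10 µg/L, with DMSO replicate 1 the highest of all pools. *echs1*, the enoyl-CoA hydratase, gave -0.18 and -0.07, and *decr1*, the dienoyl-CoA reductase, gave -0.06 and 0.12.

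Counted by pools that did not overlap, 3 of 33 genes stood above DMSO at 10 µg/L (*slc25a20*, *acat1* and *hadhab*) and none below, where 18% of all genes did not overlap and 9.76% lay above. At 0.1 µg/L 2 of 33 stood below DMSO (*hadhab* and *decr2*) and none above, where 6.63% did not overlap and 2.98% lay below. Counted in either direction, the share of the list was below that of all genes at 10 µg/L and near it at 0.1 µg/L. In the direction seen, 9.09% of the list lay above DMSO at 10 µg/L, near the 9.76% of all genes. At 0.1 µg/L 6.06% lay below, more than the 2.98% of all genes but resting on 2 genes.

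The electron transfer flavoprotein, built from *etfa* and *etfb*, and its ubiquinone oxidoreductase *etfdh* carry electrons from the acyl-CoA dehydrogenases to the respiratory chain. They formed the class with the narrowest median range over the 9 pools, at 0.50 on the log2 scale against 0.79 for all 33 genes. By log2 fold change all 3 were lower than in DMSO at 0.1 µg/L, by little. At 10 µg/L *etfa* and *etfb* were slightly lower and *etfdh* was level with DMSO (means 354 and 352). *etfa* counted 915, 652 and 901 in the DMSO pools, 636, 812 and 701 in the 0.1 µg/L pools and 910.0, 758 and 677 in the 10 µg/L pools. *etfb* counted 2067, 1678 and 2206 in the DMSO pools, 1562, 1992 and 1615 in the 0.1 µg/L pools and 2116, 1842 and 1740.5 in the 10 µg/L pools. Both were lowest in replicate 1 of 0.1 µg/L PFNA and overlapped between the groups. The log2 fold changes of *etfa*, *etfb* and *etfdh* were -0.19, -0.20 and -0.06 at 0.1 µg/L and -0.08, -0.07 and -0.003 at 10 µg/L.

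**Figure D3:**
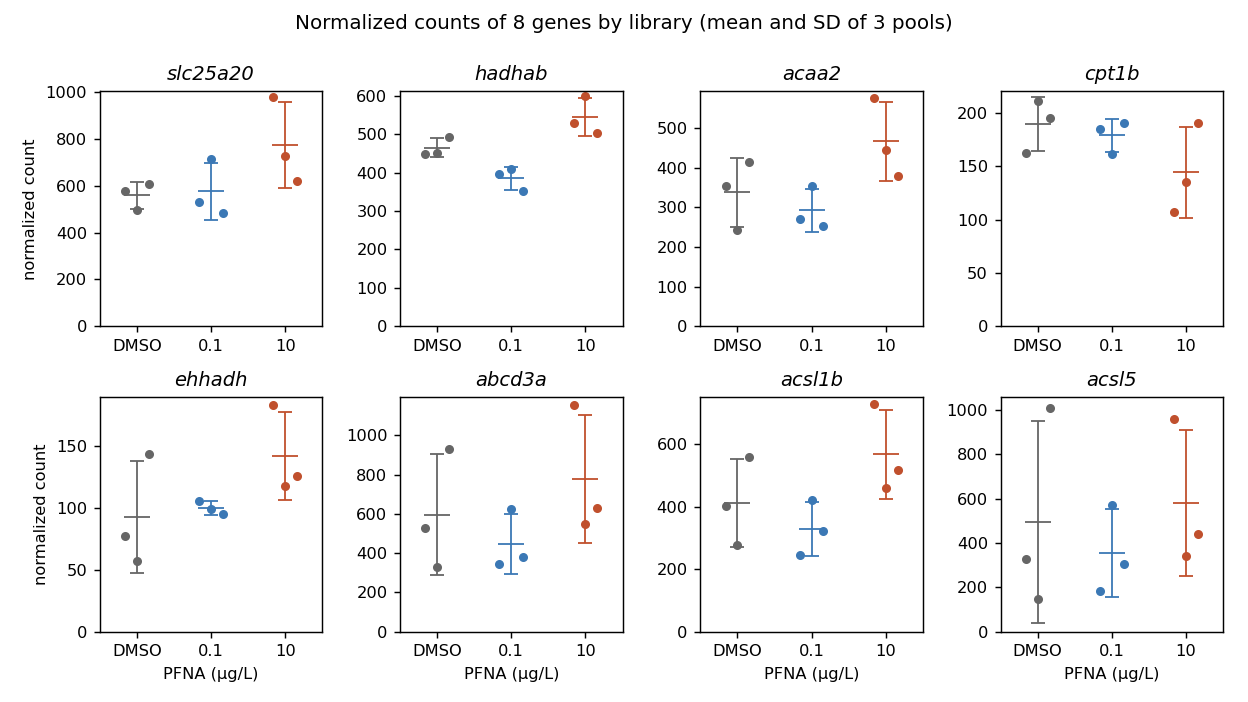
Normalized counts on one 9-library scale for 8 genes, with 1 point per pool and the mean ± SD of 3 pools in each group. The 10 µg/L pools of *hadhab* (503 to 599) and *slc25a20* (620.3 to 977) lie above their DMSO pools, while for *acsl5* and *abcd3a* DMSO replicate 3 (1011 and 931) lies above or next to the highest 10 µg/L pool (958 and 1153).

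None of the 6 peroxisomal genes had an unadjusted limma p under 0.05 against DMSO at either concentration. Of all genes, 1.57% did at 0.1 µg/L and 13.1% at 10 µg/L, so 0 of 6 does not set these genes apart. At 10 µg/L 4 of 6 were higher than in DMSO, and at 0.1 µg/L 5 of 6 were lower. *ehhadh* (ENSDARG00000070029), the bifunctional enzyme that is strongly induced by PPARα ligands in rodents, had the largest log2 fold change of the 33 at 10 µg/L and counted 77.3, 56.9 and 143 in the DMSO pools, 105, 99.1 and 94.6 in the 0.1 µg/L pools and 183, 117 and 125 in the 10 µg/L pools. DMSO replicate 3 exceeded 2 of the 3 pools of 10 µg/L PFNA. The means were 142 ± 35.5 and 92.6 ± 45.3 (SD, n = 3 each), with a log2 fold change of 0.68 (SE 0.33, 95% interval -0.06 to 1.42, limma adjusted p = 0.418). Without DMSO replicate 3 the log2 fold change was 1.04 and the limma adjusted p 0.0320, and with the first index as a covariate it was -0.05. At 0.1 µg/L, *ehhadh* held a narrow range of 94.6 to 105 inside the DMSO range, with a log2 fold change of 0.22.

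*abcd3a* (ENSDARG00000104085), a peroxisomal membrane transporter of fatty acyl-CoA, counted 526, 330.4 and 931 in the DMSO pools, 344, 622 and 378 in the 0.1 µg/L pools and 1153, 549 and 632 in the 10 µg/L pools. Its range over the 9 pools, 1.80 on the log2 scale, was the widest of the peroxisomal genes, and DMSO replicate 3 was second to replicate 1 of 10 µg/L PFNA. The log2 fold changes were -0.33 and 0.42, with a 95% interval of -0.39 to 1.24 at 10 µg/L. As single pools were left out they ran from -0.69 to 0.061 and from 0.06 to 0.81. Both upper ends came without DMSO replicate 3. *acox3*, an acyl-CoA oxidase that in mammals acts on branched chains, counted 162, 105 and 176 in the DMSO pools, 146, 145 and 94.6 in the 0.1 µg/L pools and 215, 174 and 167 in the 10 µg/L pools. DMSO replicate 3 lay above 2 of the 10 µg/L pools, and the log2 fold change at 10 µg/L was 0.34 (SE 0.23). As single pools were left out it ran from 0.11 to 0.48, the latter without DMSO replicate 3.

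*hsd17b4*, the other bifunctional enzyme, counted 679, 734 and 913 in the DMSO pools, 711, 833 and 679 in the 0.1 µg/L pools and 1108, 654 and 768 in the 10 µg/L pools. Apart from replicate 1 of 10 µg/L PFNA its groups lay together, at log2 fold changes of -0.06 and 0.09. *acaa1*, the peroxisomal thiolase, counted 179, 123 and 224 in the DMSO pools, 151, 144 and 132 in the 0.1 µg/L pools and 184, 151 and 179 in the 10 µg/L pools. The DMSO pools alone spanned the values of both exposed groups, and the log2 fold changes were -0.25 and -0.005. *decr2* (ENSDARG00000045257), the peroxisomal dienoyl-CoA reductase, was lower at both concentrations and counted 150.0, 141 and 201 in the DMSO pools, 116, 122 and 124 in the 0.1 µg/L pools and 138, 98.2 and 148 in the 10 µg/L pools. All 3 pools at 0.1 µg/L lay below all DMSO pools, with a log2 fold change of -0.42 (SE 0.21), an unadjusted p of 0.0777, the smallest of the 33 genes there, and a limma adjusted p of 1.00. At 10 µg/L the log2 fold change was -0.37 (SE 0.23) with overlapping pools, and it ran from -0.49 to -0.19 as single pools were left out.

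*acad11* and *eci2*, whose products occur in both compartments in mammals, gave log2 fold changes of -0.29 and -0.03 at 0.1 µg/L and 0.24 and 0.06 at 10 µg/L. *acad11* had the fewest reads of the list, 34 in its lowest library.

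The mitochondrial and the peroxisomal genes were set side by side. At 0.1 µg/L 16 of 21 mitochondrial and 5 of 6 peroxisomal genes were lower than in DMSO, with median log2 fold changes of -0.12 and -0.22. At 10 µg/L 13 of 21 and 4 of 6 were higher, with medians of 0.14 and 0.21. The mitochondrial median minus the peroxisomal median was 0.10 at 0.1 µg/L and -0.08 at 10 µg/L, and neither difference was tested. Pool by pool, the mean mitochondrial level minus the mean peroxisomal level was 0.002 ± 0.27 in DMSO, 0.09 ± 0.08 at 0.1 µg/L and -0.09 ± 0.24 at 10 µg/L on the log2 scale (SD, n = 3 each), with overlapping pools. The range of single genes between pools is given as a description, with no test. The median range over the 9 libraries was 1.10 on the log2 scale for the 6 peroxisomal genes, 0.65 for the 21 mitochondrial genes and 0.96 for all genes. The peroxisomal genes had fewer reads. Their median spread within groups was an SD of 0.30 on the log2 scale where counting error alone gave 0.12, and that of the mitochondrial genes was 0.22 where counting error gave 0.07. For all genes the median spread within groups was also 0.30, so the peroxisomal spread was like that of all genes and the mitochondrial spread was lower.

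Levels were then averaged over each class in each pool. The mean peroxisomal level, relative to the 9-library mean on the log2 scale, was -0.05, -0.42 and 0.45 in the DMSO pools, -0.20, -0.03 and -0.33 in the 0.1 µg/L pools and 0.51, -0.07 and 0.14 in the 10 µg/L pools. The mean mitochondrial level was -0.03, -0.17 and 0.17 in the DMSO pools, -0.18, 0.04 and -0.16 at 0.1 µg/L and 0.20, 0.08 and 0.03 at 10 µg/L. In both classes DMSO replicate 3 was among the highest 2 of the 9 pools, and the groups overlapped.

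Liver and intestine markers moved with the levels of part of the list. The 12 liver markers were all found, none was at 0 in any library, and their mean level on the same scale was 0.22, -1.04 and 0.66 in the DMSO pools, -0.86, 0.15 and -0.19 at 0.1 µg/L and 0.91, 0.02 and 0.13 at 10 µg/L. Summed over the list, the DMSO pools held 16004 to 52553 normalized counts, the 0.1 µg/L pools 21265 to 37042 and the 10 µg/L pools 35233 to 53144. The 8 intestine markers found, of 11 listed, with none at 0, had mean levels of -0.13, -1.01 and 0.96 in DMSO, -0.66, 0.15 and -0.29 at 0.1 µg/L and 0.94, -0.08 and 0.13 at 10 µg/L, and sums of 10743 to 25280, 14490 to 18435 and 14767 to 27783. The order of the 9 pools by *acsl5* was the same as their order by the intestine markers at all 9 ranks, and for *abcd3a* and *acadvl* no pool was more than 1 rank away. Other genes followed a different order, with a pool up to 8 ranks away for *cpt1b*, 7 for *cpt2* and 6 for *cpt1aa*, *cpt1ab* and *acsl1a*. These genes were singled out after their values were seen.

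Relative to DMSO, 11 of 12 liver markers and 7 of 8 intestine markers were higher at 10 µg/L (median log2 fold changes 0.39 and 0.44), and 10 of 12 and 7 of 8 were lower at 0.1 µg/L (-0.29 and -0.19). None of these passed limma, and the largest were *hpx* at 1.12 and *anpepb* at 0.75 at 10 µg/L and *fgg* at -0.59 and *slc15a1b* at -0.49 at 0.1 µg/L. The 14 neuron markers, none at 0, summed to 52878 to 83164 in DMSO, with DMSO replicate 3 the lowest of all pools, to 65983 to 87912 in the 0.1 µg/L pools and to 60992 to 64062 in the 10 µg/L pools. At 0.1 µg/L 14 of 14 were higher than in DMSO and at 10 µg/L 12 of 14 were lower, with *snap25b* at 0.28 and *nefmb* at -0.60 the largest. Of the 11 exocrine pancreas markers found, 10 were lower at 10 µg/L and 11 at 0.1 µg/L (largest *cel.1* at -0.60 and *prss59.1* at -0.59). Skeletal muscle markers were lower for 9 of 13 and 11 of 13 (largest *myhz2* at 0.52 and *ckma* at -0.24). Heart markers were higher for 7 of 7 at 10 µg/L and 3 of 6 at 0.1 µg/L (largest *nppa* at 0.65 and *hspb7* at 0.28). The part of these tissue markers in the levels of the fatty acid oxidation genes was not tested.

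**Figure D4:**
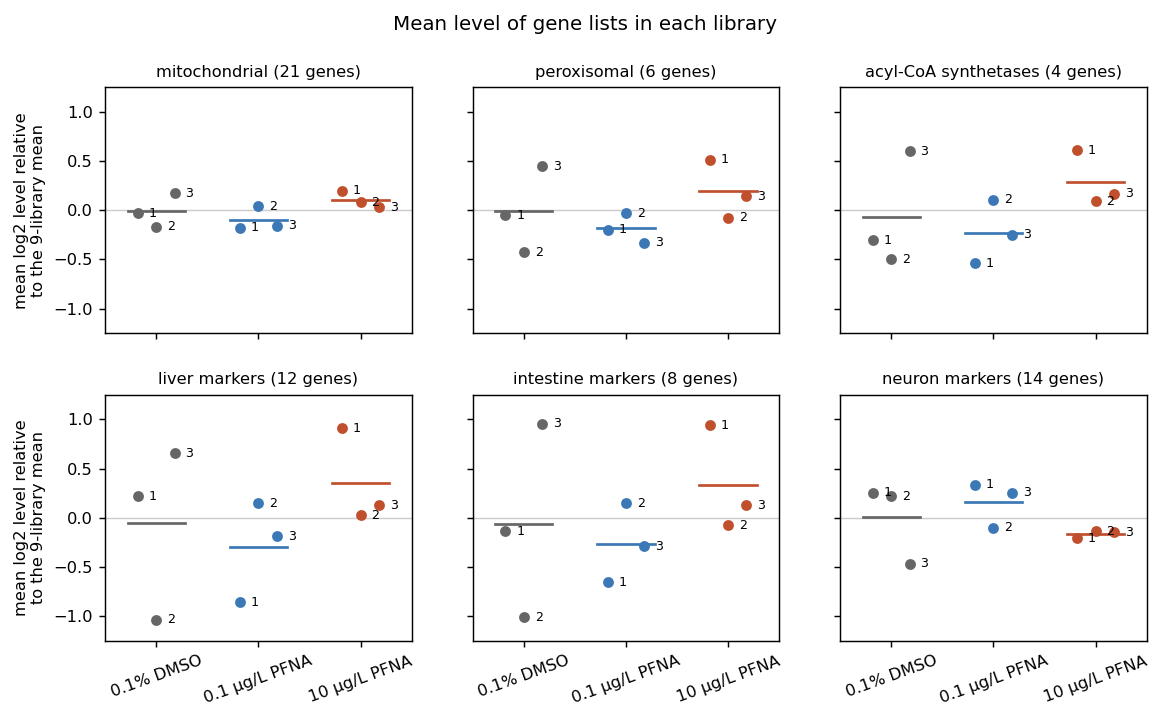
Mean log2 level of gene lists in each library relative to the 9-library mean, with 1 numbered point per pool and a line at the group mean. Replicate 3 of DMSO and replicate 1 of 10 µg/L PFNA are the highest 2 pools for the peroxisomal genes (0.45 and 0.51), the synthetases (0.60 and 0.61), the liver markers (0.66 and 0.91) and the intestine markers (0.96 and 0.94).

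A wider list of 45 genes of fatty acid oxidation and related pathways, outside the 34, was also fixed by name. Ketone body enzymes are among them, and 40 of the genes were tested. At 0.1 µg/L 18 of 40 were higher than in DMSO and none had an unadjusted p under 0.05, with *slc22a5* (a carnitine transporter, -0.56), *hacl1* (a peroxisomal lyase, 0.55) and *cratb* (a carnitine acetyltransferase, -0.39) having the smallest p. At 10 µg/L 25 of 40 were higher, where 50.8% of all genes were, and 3 of them had an unadjusted p under 0.05, where 7.91% of all genes did so upwards. None passed adjustment, and the share of this list was close to that of all genes. *slc27a1b*, a fatty acid transport protein, counted 33.3, 38.7 and 60.6 in the DMSO pools, 35.1, 41.4 and 51.3 in the 0.1 µg/L pools and 108, 77.1 and 76.6 in the 10 µg/L pools. Its 10 µg/L pools all lay above both other groups, at a log2 fold change of 0.98 (SE 0.30, limma adjusted p = 0.263). *scp2b*, related to sterol carrier protein, and *bdh1*, a ketone body dehydrogenase, were at 0.59 and 0.55 with overlapping pools. Among 17 peroxisome biogenesis genes, 11 were higher at 10 µg/L and none passed. The largest log2 fold change, 1.24 for *pex11a*, rested on low counts with overlapping pools. On the scale of that comparison it counted 3.3, 7.8 and 12.8 in the DMSO pools and 24.2, 12.7 and 18.8 in the 10 µg/L pools. It had no values at 0.1 µg/L.

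Both PFNA groups were also compared with each other, which leaves the DMSO pools out. At 10 against 0.1 µg/L, 30 of 33 genes were higher, against 50.3% of all genes, and the median log2 fold change was 0.23, against 0.003. An unadjusted p under 0.05 was reached by 10 of the 33, all of them higher, where 25.7% of the 18965 genes tested reached it and 14.2% did so upwards. Limma and edgeR passed 0 of 33 and 0 genes in all after adjustment, with 4868 and 4698 (24.8%) genes at an unadjusted p under 0.05. DESeq2 passed 3 of 33 (*hadhab*, *acaa2* and *acsl1b*), with 9.21% of all genes with an adjusted p, and 8 of 33 at an unadjusted p under 0.05, where 23.5% of all genes reached it. The 10 genes were *hadhab* (0.49), *acsl1b* (0.79), *acaa2* (0.67), *acsl4a* (0.54), *abcd3a* (0.77), *acads* (0.37), *acox3* (0.54), *acadl* (0.39), *cpt1ab* (0.33) and *acad11* (0.54), with log2 fold changes in brackets. Pools did not overlap for 10 of 33, all higher, where 28.7% of all genes did not overlap and 14.9% lay above.

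Higher values at 10 than at 0.1 µg/L were seen for 18 of 21 mitochondrial genes (median 0.15), 6 of 6 peroxisomal genes (median 0.37) and 4 of 4 synthetases (median 0.63). *cpt1b* (-0.34), *hadh* (-0.10) and *cpt2* (-0.05) were the 3 that were lower. Without replicate 2 of 0.1 µg/L PFNA, 12 of the 33 passed limma after adjustment, as did 5128 genes in all, and without replicate 1 of 10 µg/L PFNA 4 of 33 had an unadjusted p under 0.05, where 20.3% of all genes did. In this comparison 11 of 12 liver and 7 of 8 intestine markers were higher as well, with median log2 fold changes of 0.75 and 0.69, and their part in the result was not tested.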

How the data were processed

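RNA was sequenced from 9 pools of whole larvae, 3 in each of 3 groups taken from the sample labels. Per the methods, the authors trimmed reads with Trimmomatic 0.36, aligned them to zebrafish GRCz10 with STAR 2.5.2b, counted uniquely mapped exonic reads per gene with featureCounts of Subread 1.5.2 and normalized the counts by the DESeq2 median of ratios. The deposited signal is that normalized count, in 2 tables of 6 libraries (each PFNA group with DMSO). The tables also hold the authors' own log2 fold changes and p-value and adjusted p-value columns, which were not used.

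Every value divided by that of 1 read was whole within 0.01 (100% of values), so reads were recovered, and one set of size factors over all 9 libraries gave a common scale. The main test was limma 3.58.1 (R 4.3.3) with a trend on log2(normalized count + 1), for genes with a mean of at least 10, Benjamini-Hochberg adjusted over all genes, at a threshold of 0.05. The deposited values being no raw counts, edgeR 4.0.16 and DESeq2 1.42.0 were run on the recovered reads as alternatives. Of all tested genes, the count tests gave 0 (edgeR) and 0 (DESeq2) at 0.1 µg/L and 0 and 229 at 10 µg/L. For 10 against 0.1 µg/L, reads on the common scale were used. Intervals are 95% limma intervals. With 3 against 3 pools an exact permutation test cannot go below p = 0.1, so none is given. Pools of one number were not paired: the mean correlation of same-numbered deviations is given with the alternatives. Alternatives covered the pseudocount, the filter, the scaling, the tool, a replicate block, leaving out each pool and, chosen after seeing the data, the first index.

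All 33 genes may be named. Values in every library are given for the *cpt1* genes, the peroxisomal genes and the 8 of smallest p at each concentration, and for others where they were singled out later. The genes and lists were chosen with earlier results of these data known. Genes were matched by name; levels are not compared between genes, since lengths were not used here. Reads of paralogs such as *acsl1a* and *acsl1b* may be split between them, as only unique reads were counted. The scripts were tested on simulated data. Figures were drawn with matplotlib 3.10.9.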

Additional observations from a re-analysis of the deposited data

Results flagged for a closer look

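The difference between the PFNA concentrations passed one tool for 3 of the 33 genes, where 9.21% of all genes with an adjusted p passed. In DESeq2 on recovered reads, *hadhab* was higher at 10 than at 0.1 µg/L by 0.50 on the log2 scale (SE 0.16, adjusted p = 0.0323), *acaa2* by 0.67 (SE 0.22, adjusted p = 0.0295) and *acsl1b* by 0.78 (SE 0.24, adjusted p = 0.0213). The limma values were 0.49, 0.67 and 0.79 with adjusted p of 0.079, 0.082 and 0.0816, so that this call depended on the tool. For each of the 3 genes every 10 µg/L pool lay above every 0.1 µg/L pool, as was so for 14.9% of all genes. Groups of 3 pools were not tested for outlying samples.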

How the results depend on the processing

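Over 38 log2 fold changes of named genes, 602 of 638 alternatives kept direction and side of the threshold, 12 newly passed it and 24 changed sign, in 14 of the values. No gene of the list passed in the main fit, so no alternative could lose the threshold, and the 602 is no measure of robustness. The count of genes at an unadjusted p under 0.05 at 0.1 µg/L was 6 with the first index as a covariate and 0 as each pool was left out, and at 10 µg/L it was 2 with quantile scaling and 0 to 10 as each pool was left out. Genes passing adjustment numbered 0 to 1 at 10 µg/L as each pool was left out, 0 to 12 for 10 against 0.1 µg/L (4 to 16 unadjusted), and 3 there with DESeq2. The 12 and the 16 were reached without replicate 2 of 0.1 µg/L PFNA. In that fit 5128 genes in all passed adjustment and 39.1% had an unadjusted p under 0.05. The 4 came without replicate 1 of 10 µg/L PFNA, where 20.3% of all genes had such a p. The 1 and the 10 were reached without DMSO replicate 3, where 2186 genes in all passed adjustment. The 0 at 10 µg/L came without DMSO replicate 1 or without replicate 1 or 2 of 10 µg/L PFNA. For all genes, DESeq2 passed 229 at 10 µg/L and 1679 for 10 against 0.1 µg/L where limma passed 0. The mitochondrial minus peroxisomal median lay between -0.03 and 0.24 at 0.1 µg/L, and between -0.18 and 0.04 at 10 µg/L, as each pool was left out. The cause was not tested.

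The first index as a covariate turned the sign at 0.1 µg/L for *cpt1aa* (-0.24) and *ehhadh* (-0.52), and at 10 µg/L for *cpt1aa* (-0.13), *cpt1ab* (-0.013), *abcd3a* (-0.34), *ehhadh* (-0.050), *hsd17b4* (-0.16) and *acsl1b* (-0.011). As each pool was left out, signs changed at 0.1 µg/L for *cpt1aa* (-0.11 to 0.18), *cpt1ab* (-0.14 to 0.082), *cpt1b* (-0.18 to 0.0065), *abcd3a* (-0.69 to 0.061), *acox3* (-0.42 to 0.017), *ehhadh* (-0.078 to 0.59) and *hsd17b4* (-0.15 to 0.072), and at 10 µg/L for *cpt1aa* (-0.0015 to 0.29), *hsd17b4* (-0.13 to 0.25) and *acaa1* (-0.24 to 0.19).

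Replicate numbers of the sample titles gave little sign of pairing. Same-numbered deviations had mean correlations of -0.11, 0.06 and 0.03 in the 3 comparisons, and 0, 2 and 1 of the 3 pairs correlated best with their own number. Some library names carry other numbers than the titles, and a pairing by those was not tested. With the replicate block, 0 of the 33 genes passed adjustment in any comparison, and 0, 2 and 7 of 33 had an unadjusted p under 0.05 at 0.1 µg/L, at 10 µg/L and for 10 against 0.1 µg/L, where 0.981%, 14.8% and 24.5% of all genes did, the last with 740 genes passing adjustment overall. With 3 pools a group, the median standard error of the 33 genes was 0.19 at 0.1 µg/L and 0.20 at 10 µg/L on the log2 scale, which limits what could be detected.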
